A study of Mus musculus with 21 samples.

Results

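The 39 autophagy and mitophagy genes described here were taken by their symbols from a list covering initiation, the class III PI3-kinase complex, membrane supply, conjugation, the ATG8 proteins, cargo receptors, mitophagy, transcriptional regulators and the lysosome. All 39 were among the 40853 genes of the count table, and all 39 were among the 16129 genes with enough counts to be tested. Poly(A) RNA of the gastrocnemius (its medial belly), a mostly fast calf muscle, was sequenced from 21 female C57BL/6NJ mice, with no transgene or knockout in any group. Mice of every group were 10 weeks old at the start. The Inactive group (n = 7) was not trained. The Active group (n = 7) ran on a treadmill on 5 days a week for 6 weeks, in sessions of up to 40 min that combined a slow warm-up with running at about 70% of maximal speed, the latter lengthened over the early weeks. The Activity Reduction group (n = 7) trained the same way for 4 weeks and was then inactive for 2 weeks. Mice of every group, untrained ones included, ran a maximal test 48 to 72 h before collection and were fasted for 5 to 6 h by the series record, so no group was fed or free of recent exercise. The methods give a fasting range with a shorter lower end.

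Autophagy encloses cytoplasm, protein aggregates or whole mitochondria in a double membrane and delivers them to the lysosome for digestion. A kinase complex starts the membrane, a lipid kinase complex marks it, a ubiquitin-like conjugation system attaches ATG8 proteins to it, cargo receptors link the load to ATG8, and TFEB and TFE3 switch on many autophagy and lysosome genes. In skeletal muscle the pathway is known for its response to fasting, contraction and disuse, and the abundance of an mRNA does not measure how much cargo is being degraded.

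The libraries held between 38482455 and 59785132 assigned read counts, and every Active library (at most 49211581) held fewer than every Inactive one (at least 49284630). Fast-muscle transcripts dominated all libraries, the 9 skeletal muscle markers summing to between 150520.6 and 190773.7 CPM (counts scaled to a common library total, with TMM factors for library composition). Transcripts of 24 genes typical of liver, such as albumin, split the libraries into 8 with more of them (5 Active, 2 Activity Reduction and 1 Inactive) and 13 with fewer (2 Active, 5 Activity Reduction and 6 Inactive). The 8 were the first 8 columns of the table. With group in the fit, the difference between these divisions had an unadjusted p under 0.05 for 3 of the 39 genes (1 higher, Atg5, and 2 lower, Atg10 and Optn, with more liver transcripts), that is 2.56% and 5.13%, beside 7.8% and 4.82% of all genes tested.

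Levels differed between the genes by about 2 orders of magnitude. To compare genes, counts were divided by the length of each gene's canonical transcript and scaled so that each library has the same total (TPM). In Inactive muscle the most abundant were Pink1, the kinase that marks damaged mitochondria, at 726.4 ± 83.4 TPM (SD, n = 7), Ctsd, the lysosomal aspartyl protease cathepsin D, at 685.6 ± 32.0 TPM, Map1lc3b, which encodes the ATG8 protein LC3B, at 521.0 ± 33.3 TPM, Sqstm1, the ubiquitin-binding cargo receptor also called p62, at 446.2 ± 39.9 TPM, and Lamp1, a lysosomal membrane glycoprotein, at 395.0 ± 20.8 TPM. The conjugation enzymes sat low, from Atg3 at 41.1 ± 7.05 TPM down to Atg7 at 6.61 ± 0.818 TPM. The regulators stood far apart, Tfeb at 137.2 ± 11.3 TPM and Tfe3 at 6.75 ± 0.727 TPM. The ranking depends on the length used: divided by the union of all annotated exons, Map1lc3b was at 112.9 TPM and Lamp2 at 35.8 TPM in place of 137.5 TPM, while Pink1 (1250.9 TPM) and Ctsd (978.9 TPM) stayed highest among the genes just named.

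**Figure D1:**
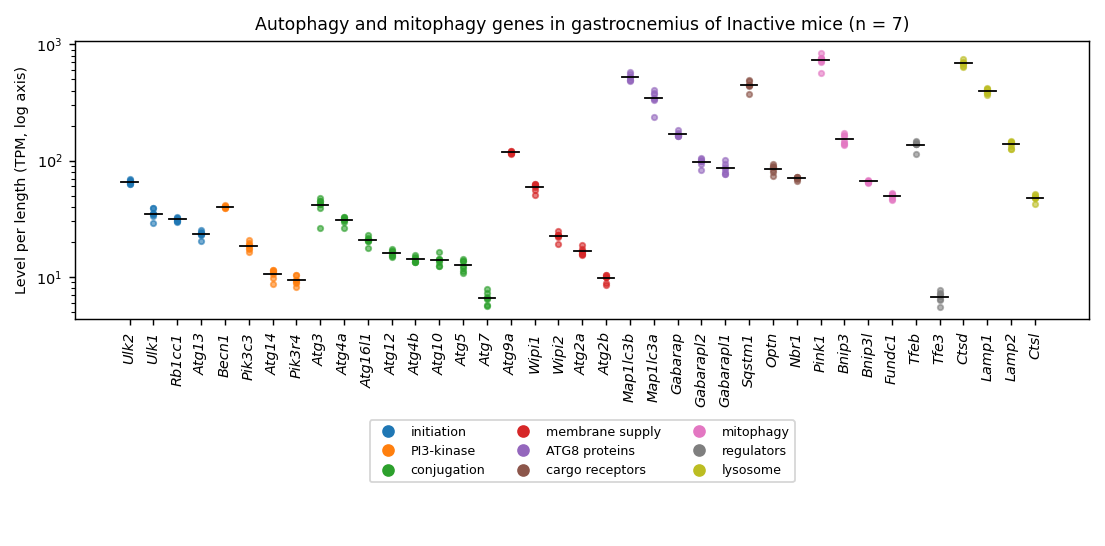
Level of each of the 39 genes in the 7 Inactive libraries, in TPM on a log axis, grouped and coloured by role; points are libraries and bars are means. The means run from 726.4 TPM for Pink1 to 6.61 TPM for Atg7, and the points of 1 gene lie close together compared with this range. Genes of similar mean, such as Rb1cc1 (31.1 TPM) and Atg4a (30.8 TPM), have overlapping points.

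Within the Inactive group these genes varied little between mice. The median coefficient of variation of CPM over the 39 was 7.36%, beside 12.4% over all genes tested. The genes were not matched for level, whose part in this contrast was not tested. Among the 39 the coefficient ran from 1.79% for Nbr1, a cargo receptor related to Sqstm1, to 17.2% for Atg3, the enzyme that passes ATG8 to its lipid. The wide spread of Atg3 and Map1lc3a came from the same library, Inactive replicate 7, which held 18.8 CPM of Atg3 beside 27.9 to 33.5 in the others, 63.4 CPM of Map1lc3a beside 88.3 to 108.8, and 691.1 CPM of Pink1 beside 872.5 to 1014.8. Active replicate 2 was likewise the lowest Active library for all 3, with 18.2, 63.7 and 676.1 CPM. Inactive replicate 1, the Inactive library with more liver transcripts, held the lowest Inactive value of 18 of the 39 genes, and Activity Reduction replicate 7 the lowest of its group for 15.

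TFEB and its relatives bind E-box sequences in the promoters of lysosome and autophagy genes, and the promoters are shown because Ctsd, which holds such sequences, had the smallest p of the 39 genes in the comparison of Active with Inactive muscle below. RefSeq start sites of build GRCm38.p6 gave a window from 250 bases before to 50 after the start for 32 of the 39 genes. The E-box CACGTG, which reads the same on both strands, was in a window of 8 of the 32 (25%: Atg3, Atg5, Atg7, Atg14, Bnip3, Lamp1, Ctsl and Ctsd), beside 8.09% of the 27025 genes with a window. The longer palindrome TCACGTGA, which contains the E-box and is the core of the motif called CLEAR, was in 2 of 32 (6.25%: Atg3 and Ctsd) and in 1.12% of all genes. The FOXO motif GTAAACA, searched on both strands, was in none of the 32 and in 4.05% of all genes. Ctsd and Atg3 held 2 E-boxes each and Lamp1 held 4, counts reached by 0.594% and 0.0244% of the 32851 windows. The 250 bases before the start follow for these 3, from 5′ to 3′ on the gene's strand, with E-boxes (and, where present, the whole of TCACGTGA) in capitals: Ctsd from chr7:142387828-142388077 on the minus strand, Lamp1 from chr8:13158911-13159160 on the plus strand and Atg3 from chr16:45158579-45158828 on the plus strand.
Ctsd: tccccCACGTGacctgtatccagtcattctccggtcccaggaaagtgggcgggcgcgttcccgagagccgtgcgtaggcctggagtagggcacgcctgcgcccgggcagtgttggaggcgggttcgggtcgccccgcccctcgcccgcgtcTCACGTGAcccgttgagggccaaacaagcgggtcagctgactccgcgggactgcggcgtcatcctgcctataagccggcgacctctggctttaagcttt
Lamp1: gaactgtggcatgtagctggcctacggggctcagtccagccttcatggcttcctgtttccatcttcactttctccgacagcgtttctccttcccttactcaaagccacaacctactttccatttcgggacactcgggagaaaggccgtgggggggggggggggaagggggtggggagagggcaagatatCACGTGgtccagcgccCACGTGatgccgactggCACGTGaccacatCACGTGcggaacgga
Atg3: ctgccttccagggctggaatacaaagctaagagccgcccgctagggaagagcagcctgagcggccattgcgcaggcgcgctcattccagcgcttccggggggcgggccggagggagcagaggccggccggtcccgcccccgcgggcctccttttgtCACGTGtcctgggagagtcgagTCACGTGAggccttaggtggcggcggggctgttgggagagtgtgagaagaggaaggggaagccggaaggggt
A match describes the letters of the window and is no evidence of binding. Of the 10 genes lower in Active than in Inactive muscle described next, 9 had a window and 2 of these (Ctsd and Ctsl) held the E-box. No window of Tfeb, Sqstm1, Gabarap, Ulk1 or Ulk2 held it.

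The first comparison asked how autophagy genes differed after 6 weeks of training. Active muscle held slightly less of most of them: 33 of 39 had a lower level than in Inactive muscle and 6 a higher one, with a median log2 fold change of -0.07, beside 48.4% of all genes lower and a median of 0.0052. No difference passed the threshold used throughout, a Benjamini-Hochberg adjusted p under 0.05 with a log2 fold change beyond 0.25 in edgeR's quasi-likelihood test, and neither did any of the 16129 genes (0%). At an unadjusted p under 0.05, 10 members (25.6%) were lower and 1 (2.56%) higher, beside 4.69% lower and 6.18% higher among all genes. DESeq2 called none either. It had 11 members at an unadjusted p under 0.05 (28.2%, beside 7.13% of the 28675 genes it tested). At smaller folds it gave an adjusted p under 0.05 to Ctsd (0.0152) and Gabarap (0.0442). Expressed in percent, the 10 lay between -14.6% and -5.24%.

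Lysosomal proteases were among the lower genes. Ctsd (chr7:141929646-141941775, build GRCm39, minus strand) lay between 447.0 and 511.0 CPM (median 472.9) in Inactive, between 414.8 and 443.1 (median 424.5) in Active and between 437.4 and 520.0 (median 464.5) in Activity Reduction libraries. All 7 Active values were below the lowest Inactive value, and Ctsd was the single member whose groups did not overlap, which 0.223% of all genes did. Its log2 fold change was -0.16 (SE 0.037, edgeR adjusted p = 0.162). Ctsl, the cysteine protease cathepsin L, ranged from 79.3 to 98.9 CPM (median 93.4) in Inactive and from 77.3 to 93.8 (median 84.0) in Active libraries. The ranges overlapped almost wholly because Inactive replicate 1 was at the low end, and the log2 fold change was -0.15 (SE 0.063, edgeR adjusted p = 0.412). Lamp1 and Lamp2, the membrane proteins of the same compartment, had log2 fold changes of -0.07 and 0.02 with unadjusted p of 0.119 and 0.671.

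Tfeb and Tfe3, related transcription factors of the lysosome programme, had opposite signs. Tfeb (chr17:48047837-48103348, GRCm39) was between 86.1 and 94.4 CPM (median 89.6) in Active libraries. It was between 84.7 and 113.5 CPM (median 106.9) in Inactive ones, of which 6 lay between 105.5 and 113.5. The log2 fold change was -0.23 (SE 0.069, edgeR adjusted p = 0.266), and without Inactive replicate 1, the lowest library, it was -0.27 (edgeR adjusted p = 0.0562). Tfe3, much less abundant, was between 6.40 and 8.68 CPM (median 7.68) in Inactive and between 7.62 and 9.62 (median 8.17) in Active libraries. With 6 of 7 Active values above the Inactive median, its log2 fold change was 0.15 (SE 0.070, edgeR adjusted p = 0.445).

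Of the 4 initiation genes, the kinases Ulk1 and Ulk2 were lower and their partners Atg13, which regulates them, and Rb1cc1, the scaffold called FIP200, had log2 fold changes of 0.01 and -0.03. Ulk2 lay between 133.6 and 148.1 CPM (median 145.5) in Inactive and between 124.7 and 138.6 (median 129.7) in Active libraries, 5 of 7 Active values lying below all Inactive ones. Its log2 fold change was -0.12 (SE 0.039, edgeR adjusted p = 0.299). Ulk1 lay between 56.3 and 77.3 CPM (median 69.2) and between 57.0 and 68.6 (median 61.8), respectively, with a log2 fold change of -0.18 (SE 0.076, edgeR adjusted p = 0.414). Of the lipid kinase complex, Becn1, its regulatory core, lay between 54.9 and 59.1 CPM (median 57.9) in Inactive and between 48.7 and 57.5 (median 54.8) in Active libraries. All 7 Active values of Becn1 were below the Inactive median, at a log2 fold change of -0.09 (SE 0.039, edgeR adjusted p = 0.416). Pik3c3, the catalytic subunit, Pik3r4, its regulatory kinase-like subunit, and Atg14, which brings the complex to the autophagosome, had log2 fold changes of -0.05, -0.03 and -0.11, none at an unadjusted p under 0.05.

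All 5 ATG8 genes had negative log2 fold changes. Gabarap (chr11:69881888-69886109, GRCm39) was between 91.4 and 104.2 CPM (median 95.9) in Inactive and between 78.0 and 91.7 (median 86.2) in Active libraries. Apart from 1 Active library all lay below the lowest Inactive one, and the log2 fold change was -0.17 (SE 0.044, edgeR adjusted p = 0.204). Map1lc3b was between 138.5 and 165.6 CPM (median 152.1) and between 127.8 and 161.0 (median 138.1), a log2 fold change of -0.12 (SE 0.048, edgeR adjusted p = 0.383). Gabarapl1 had -0.11, Gabarapl2 -0.10 and Map1lc3a -0.05 on the same scale, with unadjusted p of 0.102, 0.0596 and 0.648. Of these, Gabarapl2 lay between 44.6 and 58.2 CPM (median 54.6) in Inactive and between 48.0 and 53.4 (median 49.6) in Active libraries, all 7 of them under the Inactive median.

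Among cargo receptors, Sqstm1 (chr11:50089572-50107684, GRCm39) was between 386.7 and 523.4 CPM (median 475.2) in Inactive and between 414.6 and 443.2 (median 422.4) in Active libraries. The lowest Inactive value was replicate 1, and the other 6 Inactive libraries were at 469.0 CPM or more, above every Active one. Its log2 fold change was -0.16 (SE 0.067, edgeR adjusted p = 0.396), and -0.21 (edgeR adjusted p = 0.0739) without that replicate. Without Inactive replicate 3, and also without Inactive replicate 7, Sqstm1 no longer had an unadjusted p under 0.05. Nbr1 was between 106.1 and 111.3 CPM (median 107.6) in Inactive and between 97.9 and 112.7 (median 99.9) in Active libraries, with a log2 fold change of -0.08 (SE 0.032, edgeR adjusted p = 0.390). Optn, a receptor used in mitophagy, had -0.04. The outer-membrane mitophagy receptors Bnip3, Bnip3l and Fundc1 and the kinase gene Pink1 had -0.12, -0.07, -0.05 and -0.10, none at an unadjusted p under 0.05. The sign for Pink1 turned in the libraries with fewer liver transcripts, to 0.09 (unadjusted p = 0.349), and with the division as a covariate it was -0.04.

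The membrane-supply genes (the lipid carriers Atg2a and Atg2b, the scramblase Atg9a, and Wipi1 and Wipi2, which read the lipid mark) and the conjugation genes (the E1-like Atg7, the E2-like Atg3 and Atg10, the proteases Atg4a and Atg4b, and Atg5, Atg12 and Atg16l1, which form the complex that directs lipidation) held no member with an unadjusted p under 0.05. Their log2 fold changes ran from -0.13 for Atg7 to 0.09 for Atg10, with 4 of 5 and 6 of 8 negative. When the amount of liver transcripts (more or fewer) was a covariate, 4 of them had an unadjusted p under 0.05. These were Atg10 at 0.26, Atg7 at -0.22, Atg5 at -0.14 and Atg9a at -0.11 on the log2 scale, with edgeR unadjusted p of 0.0241 to 0.048 and adjusted p of 0.503 to 0.581. With that covariate Ulk2, Map1lc3b, Ulk1, Ctsl and Tfe3 no longer had one, at edgeR unadjusted p of 0.0742, 0.0808, 0.0664, 0.0632 and 0.146, leaving 10 members (25.6%) beside 8.51% of all genes.

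**Figure D2:**
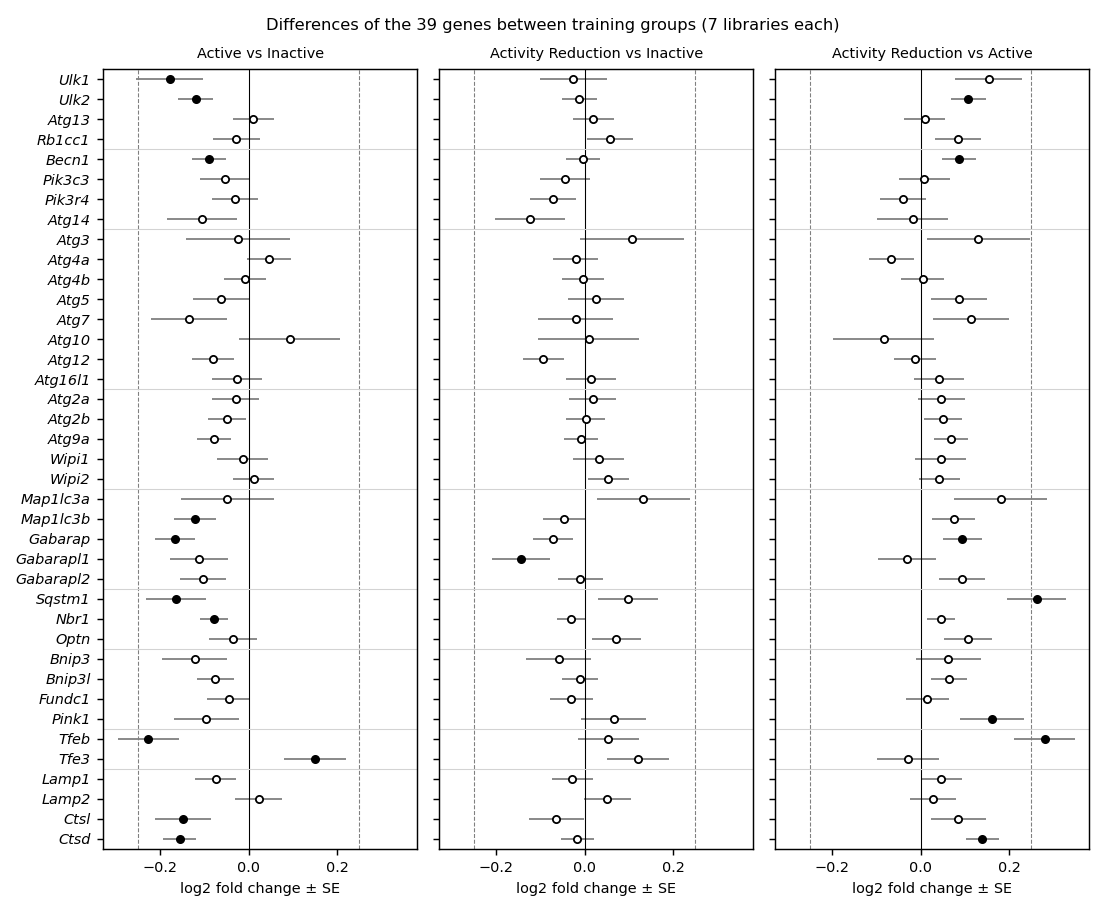
Log2 fold change with its standard error for each of the 39 genes in the 3 comparisons (7 libraries a group), in order of role; filled points have an unadjusted p under 0.05 and dashed lines mark a log2 fold change of 0.25 in either direction. Most points lie left of 0 in Active against Inactive (33 of 39) and right of 0 in Activity Reduction against Active (32 of 39), and those past a dashed line, Tfeb and Sqstm1, are both in the latter.

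The second comparison asked how the genes stood after 2 weeks without training, against mice that had trained to the end. Activity Reduction muscle had a higher level of 32 of the 39 genes and a lower one of 7, with a median log2 fold change of 0.06, beside 49.8% of all genes higher and a median of -0.0006. This comparison uses the same 7 Active libraries as the one above, so an opposite sign in both is in part the same measurement and is not a second finding. No member was called, nor was any of the 16129 genes (0%). At an unadjusted p under 0.05, 7 members (17.9%) were higher and 0 lower, beside 6.89% and 6.44% of all genes. DESeq2 had 8 members at that level (20.5%), beside 8.27% of the 28675 genes it tested. It called 2, Tfeb (adjusted p = 0.0150) and Sqstm1 (adjusted p = 0.0182). Ctsd had a DESeq2 adjusted p of 0.0307 with a fold under the threshold. The share of all genes that DESeq2 called is not given here, so these calls have no background beside them. With DESeq2 the study itself reported differentially expressed transcripts in this comparison.

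Tfeb was between 97.7 and 137.8 CPM (median 100.1) in Activity Reduction libraries, above every Active library (86.1 to 94.4), and was the single member without overlap, beside 0.285% of all genes. Its log2 fold change of 0.28 (SE 0.069, edgeR adjusted p = 0.115) was the largest among the 39. Activity Reduction replicate 2 held the 137.8 CPM, and without it the log2 fold change was 0.22 (edgeR adjusted p = 0.163). Sqstm1 was between 415.9 and 597.8 CPM (median 520.2), 6 of 7 values lying above the highest Active value of 443.2, with a log2 fold change of 0.26 (SE 0.067, edgeR adjusted p = 0.123). The same replicate 2 was again highest, and the log2 fold change without it was 0.22 (edgeR adjusted p = 0.174). For Ctsd, 6 of 7 Activity Reduction values were above the highest Active one, and the log2 fold change was 0.14 (SE 0.037, edgeR adjusted p = 0.129).

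Ulk2 was between 125.8 and 150.7 CPM (median 140.9) in Activity Reduction libraries, with a log2 fold change of 0.11 (SE 0.039, edgeR adjusted p = 0.238). The lowest value was replicate 2, the library highest for Tfeb and Sqstm1. Becn1 was between 54.7 and 60.9 CPM (median 56.9), 3 of 7 above the highest Active value, at a log2 fold change of 0.09 (SE 0.039, edgeR adjusted p = 0.339). Gabarap was between 83.7 and 101.6 CPM (median 92.4), 4 of 7 above the highest Active value, at 0.09 (SE 0.044, edgeR adjusted p = 0.359). Ulk1 (53.3 to 79.7 CPM, median 67.2) and Ctsl (78.4 to 107.2 CPM, median 85.0) had log2 fold changes of 0.15 and 0.09 with unadjusted p of 0.0549 and 0.188.

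Pink1 changed sign when the libraries with more liver transcripts were left out. Over all libraries it was between 889.6 and 996.7 CPM (median 919.3) in Activity Reduction and between 676.1 and 966.0 (median 840.7) in Active libraries, a log2 fold change of 0.16 (SE 0.073, edgeR adjusted p = 0.343). The 2 Active libraries with fewer liver transcripts held 933.4 and 966.0 CPM, within the Activity Reduction range, and when the 13 libraries with fewer of these transcripts were fitted alone it had -0.02 on the log2 scale (unadjusted p = 0.808). In the same 13 libraries Tfeb had 0.21 and Sqstm1 0.23, with unadjusted p of 0.0104 and 0.0252 (edgeR adjusted p = 0.981 for both), and with the division as a covariate over all 21 they had 0.27 and 0.27. Ctsd, Ulk2, Becn1 and Gabarap kept positive log2 fold changes in the 13 libraries, of 0.11, 0.10, 0.09 and 0.07, with unadjusted p of 0.131, 0.117, 0.193 and 0.271. Only 2 Active libraries were among the 13.

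**Figure D3:**
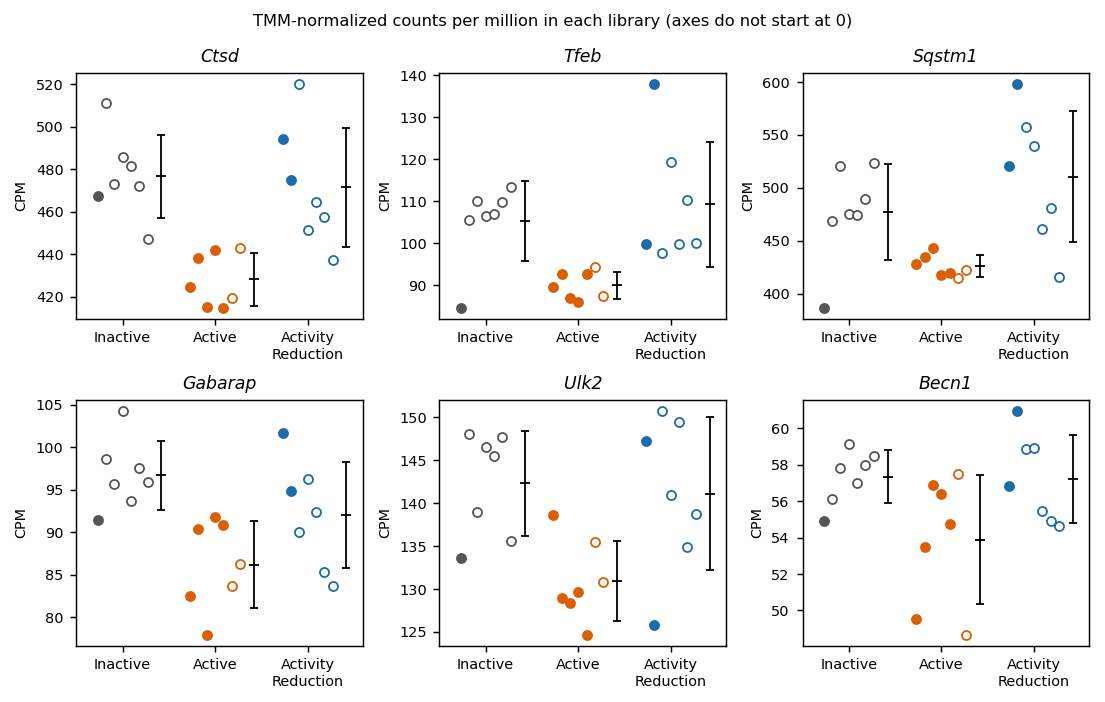
CPM of 6 genes in each of the 21 libraries by group, replicates 1 to 7 from left to right, filled where the library held more liver transcripts, with the mean ± SD of the group beside them; the axes do not start at 0. Active values of Ctsd lie under all Inactive ones and Active values of Tfeb under all Activity Reduction ones, and Inactive replicate 1 is the low point of Tfeb and Sqstm1.

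The third comparison set Activity Reduction against mice that had never trained. Here the genes were split, 22 lower and 17 higher, with a median log2 fold change of -0.0089, beside 52.2% of all genes higher and a median of 0.0057. No member was called (2 of the 16129 genes were, 0.0124%). At an unadjusted p under 0.05, 1 member was lower (2.56%, beside 3.54% of all genes) and 0 were higher (beside 4.19%). DESeq2 also had 1 (2.56%, beside 4.88% of the genes it tested) and called none. The count was 3 (7.69%) without Activity Reduction replicate 3 and also without replicate 7, beside 9.07% and 7.61% of all genes. That member was Gabarapl1, with 44.8 to 60.6 CPM (median 49.8) in Inactive, 42.6 to 53.5 (median 47.0) in Active and 41.8 to 51.1 (median 45.6) in Activity Reduction libraries. The ranges overlapped, and the log2 fold change was -0.14 (SE 0.066, edgeR adjusted p = 0.637). None of the 39 had groups that did not overlap, beside 0.112% of all genes.

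Ctsd, Tfeb, Sqstm1, Ulk2, Becn1 and Gabarap had an unadjusted p under 0.05 in both comparisons with Active muscle, which share the Active libraries. Choosing genes this way leaves little room for a difference between Activity Reduction and Inactive muscle, so their small values are no separate finding. The log2 fold change against Inactive was -0.02 (SE 0.037) for Ctsd, 0.05 (SE 0.069) for Tfeb and 0.10 (SE 0.067) for Sqstm1. It was -0.01 (SE 0.039) for Ulk2, -0.0032 (SE 0.039) for Becn1 and -0.07 (SE 0.044) for Gabarap. In the libraries with fewer liver transcripts Gabarap had -0.13 (edgeR unadjusted p = 0.0106, adjusted p = 0.461). Ctsd, Tfeb, Sqstm1, Ulk2 and Becn1 had -0.04, -0.05, -0.0085, -0.01 and -0.04 there, none at an unadjusted p under 0.05. Over all libraries Tfe3 had 0.12 (SE 0.070) against Inactive, with 7.04 to 8.71 CPM (median 8.42) in Activity Reduction muscle. Nbr1 and Map1lc3b lay between the other groups, at medians of 105.3 CPM (102.0 to 109.9) and 146.5 CPM (137.7 to 155.4). A difference that misses the threshold does not show that the levels were equal.

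The test over all 3 groups together had an unadjusted p under 0.05 for 6 of 39 genes (15.4%), Ctsd, Tfeb, Sqstm1, Gabarap, Ulk2 and Becn1, beside 12.6% of all genes. The smallest edgeR adjusted p among them was 0.138, for Ctsd. Without Inactive replicate 1 the 6 became 11 (28.2%, beside 15.9% of all genes). Without Active replicate 2 they became 10 (25.6%, beside 13%), and by DESeq2 they were 9 (23.1%, beside 8.16%). In the libraries with fewer liver transcripts alone they were 8 (20.5%, beside 6.92%). With the liver division as a covariate they were 4 (10.3%, beside 10.8%), Becn1 and Ulk2 no longer being among them. Counted by library, each Active mouse had from 7 to 13 of the 39 genes below the lowest Inactive value and from 0 to 4 above the highest. The Activity Reduction mice had from 2 to 10 below and from 0 to 12 above. The same counts over all genes were not made, so these numbers have no background beside them. Genes of 1 library are also not independent of each other.

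The make-up of the ATG8 family differed little between the 3 groups. As a share of the summed TPM of its 5 genes, Map1lc3b made up 42.9 ± 2.26% (SD, n = 7) in Inactive, 42.4 ± 3.39% in Active and 41.5 ± 1.25% in Activity Reduction muscle. Map1lc3a made up 28.3 ± 3.34%, 29.4 ± 4.00% and 31.1 ± 1.58%, and its CPM lay between 63.4 and 108.8 (median 90.8), between 63.7 and 111.5 (median 91.8) and between 87.2 and 110.8 (median 102.0), respectively. Gabarap made up 13.8, 13.2 and 13.1%, Gabarapl2 8.03, 8.03 and 7.96%, and Gabarapl1 7.05, 7.02 and 6.39%. For each of the 5 the ranges over libraries of the 3 groups overlapped. With exon-union lengths Map1lc3a led, at 44.0% in Inactive muscle, and Map1lc3b made up 12.5%, so which of these is the main transcript cannot be read from these counts.

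**Figure D4:**
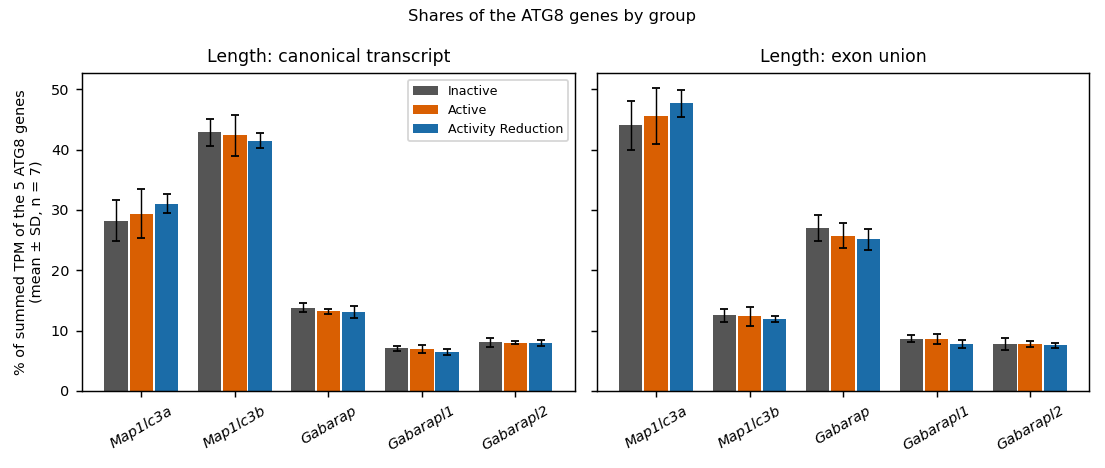
Share of each of the 5 ATG8 genes in their summed TPM, by group (mean ± SD, n = 7), with lengths from the canonical transcript on the left and the exon union on the right. Within a panel the 3 bars of a gene are close together, while Map1lc3b falls from 42.9 to 12.5% of the Inactive total between the panels.

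Beyond the 39, 118 other genes of the pathway were listed and 117 of them tested. In Active against Inactive muscle 4 (3.42%) had an unadjusted p under 0.05 and were higher and 14 (12%) were lower, beside 6.18% and 4.69% of all genes, with 82 of 117 lower in all. The smallest p were those of Cd63, a late-endosome tetraspanin, Hexa, the alpha subunit of beta-hexosaminidase, and Gaa, the acid alpha-glucosidase that degrades glycogen in the lysosome. Gaa was at 270.2 ± 13.2 CPM in Inactive and 236.2 ± 14.5 CPM in Active muscle (SD, n = 7), without overlap (beside 0.223% of all genes), at a log2 fold change of -0.19 (edgeR adjusted p = 0.246). Cd63 had -0.20 and Hexa -0.17 (edgeR adjusted p = 0.159 and 0.234). In Activity Reduction against Active muscle 22 (18.8%) were higher and 4 (3.42%) lower at that level, beside 6.89% and 6.44% of all genes, with 90 of 117 higher in all, led by Atp6v0c, the membrane ring of the vacuolar proton pump, at 0.15, Fkbp8, a mitophagy receptor, at 0.14, and Tex264, a receptor for endoplasmic reticulum, at 0.19 (edgeR adjusted p = 0.132, 0.162 and 0.167). Against Inactive muscle Activity Reduction had 7 higher (5.98%) and 2 lower (1.71%), beside 4.19% and 3.54% of all genes, led by Fkbp8, the initiation subunit Atg101 and the fusion GTPase Rab7 at 0.16, 0.21 and 0.25 (edgeR adjusted p = 0.290, 0.344 and 0.445). None of the 117 had an adjusted p under 0.05 in any comparison.

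The vacuolar proton pump, which acidifies the lysosome, had the most uniform signs of these lists. All 16 of its subunit and accessory genes were lower in Active than in Inactive muscle (median log2 fold change -0.04), and 4 (25%) had an unadjusted p under 0.05, beside 4.69% of all genes. In Activity Reduction against Active muscle 15 of 16 were higher (median 0.05), 5 of them (31.2%) at that level, beside 6.89% of all genes. The other lysosomal proteins were mixed, 16 of 28 being lower in Active against Inactive muscle. Upstream regulators (16 of 22 lower), fusion genes (10 of 13), other receptors and mitophagy genes (13 of 20) and other initiation, nucleation and conjugation genes (11 of 18) lay between.

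Summed markers of other cells had different medians in the groups, with no marker at an adjusted p under 0.05, and their part in the results above was not tested. The 8 macrophage markers summed to between 39.01 and 68.5 CPM (median 48.3) in Active, between 31.0 and 69.9 (median 36.4) in Inactive and between 21.8 and 68.7 (median 34.2) in Activity Reduction libraries. Of these 8, 7 were higher in Active than in Inactive muscle, 2 at an unadjusted p under 0.05 (25%, beside 6.18% of all genes), and 7 were lower in Activity Reduction than in Active muscle, again 2 at that level (25%, beside 6.44%). None was at 0 in the mean of any group. The 5 endothelial markers summed to between 186.0 and 244.5 CPM (median 211.1) in Active, between 176.4 and 218.7 (median 194.7) in Inactive and between 170.1 and 197.5 (median 189.1) in Activity Reduction libraries, with 3 of 5 higher in Active than in Inactive muscle and 3 lower in Activity Reduction than in Active muscle at an unadjusted p under 0.05 (60% in both, beside 6.18% and 6.44% of all genes). The 6 slow-fibre markers were all lower in Activity Reduction than in Inactive muscle (3 of 6 at an unadjusted p under 0.05, beside 3.54% of all genes, median log2 fold change -0.58), summing to between 441.4 and 1434.1 CPM beside 1291.8 to 1682.9. In whole muscle, fewer cells of a type and less RNA per cell cannot be told apart.

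Reads of some members may be shared with other genes. Whether strand was used in counting is not given in the sources used here, so reads from Becn1 and Cntd1 (43.8% of Becn1 exon length overlapped on the opposite strand), Atg13 and Arhgap1 (32.8%), Gabarapl1 and 1700101I11Rik (31.0%), Pink1 and Ddost (37.4%), Lamp1 and Grtp1 (49.2%) and Sqstm1 and Mrnip (17.2%) cannot be told apart in the overlap. These partners were low, from 0.164 CPM for 1700101I11Rik to 4.86 CPM for Mrnip in Inactive muscle, except Ddost at 33.8 CPM beside 891.0 CPM of Pink1. Ctsd shares 29.2% of its exon length with the protein-coding Gm49369 and Atg9a 25.2% with Gm29253, both on the same strand, and Ctsl 26.1% with Gm47123 on the opposite strand. The count table lists none of these 3 symbols, so how reads in those exons were assigned is not known. Atg4a shares 51.1% of its transcript with the copy Atg4a-ps, and Bnip3, Bnip3l, Gabarapl2 and Map1lc3b have pseudogenes of near-identical sequence, so their counts are uncertain where reads could not be placed.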

How the data were processed

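Per the labels and the study's methods, the authors used fastp to trim paired-end reads, STAR for alignment to GRCm39 and featureCounts for the counts per gene. Versions, annotation and strand setting are not given in the sources used here. The deposited values were raw read counts per gene for 21 mice. A second deposited table, described as normalized, was identical to the first in all 857913 values and was not used. Counts were fitted with edgeR 4.0.16 (R 4.3.3; filterByExpr, TMM, quasi-likelihood test) over all 21 libraries without covariates, and p-values were adjusted (Benjamini-Hochberg) over 16129 genes. A gene was called at an adjusted p under 0.05 and an absolute log2 fold change over 0.25, the study's thresholds, whose fold scale was taken as log2. DESeq2 1.42.0, its size factors in edgeR, no filter on low counts, fits of only the groups compared, a replicate block, the liver division as covariate or limit, and leaving out each library were alternatives. The fit was tested on simulated counts with genes changed in Active against Inactive. It called 47 of 100 genes changed by a log2 fold change of 0.5 and 70 of 100 changed by 1, with 5 false calls. Changes as small as those of the members were not simulated. Total counts ran from 38482455 to 59785132, and libraries of a group differed by more than counting noise. The smallest chi-square per degree of freedom among pairs of libraries was 12.8 in Active, 14.3 in Inactive and 21.1 in Activity Reduction. Group came from each sample's treatment label. Gene coordinates and lengths were from GENCODE on GRCm39 and promoter windows from RefSeq (GRCm38.p6). Replicate numbers occur in all 3 groups, but deviations of same-numbered libraries correlated between -0.222 and 0.471, so they were not taken as pairs. Every member is named, with group ranges for those at an unadjusted p under 0.05 in any comparison and for the ATG8 genes; of other pathway genes, at most the 3 smallest p under 0.05 per comparison are named. Members, lists and tests were chosen with earlier results of these data known.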

Additional observations from a re-analysis of the deposited data

Results flagged for a closer look

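In 5 of the 45 sets of 7 values examined for a sample far from the others (15 genes in 3 groups, where chance alone gives about 1 in 20), the lowest sample lay far below the rest, and it was Inactive replicate 1 each time. This library held 84.7 CPM of Tfeb, beside 105.5 to 113.5 in the other 6 Inactive libraries. It held 386.7 CPM of Sqstm1 beside 469.0 to 523.4, and 79.25 CPM of Ctsl beside 93.1 to 98.9. For Ulk1 it had 56.31 CPM beside 68.5 to 77.3, and for Gabarapl2 it had 44.59 CPM beside 53.8 to 58.2. It was also the Inactive library with more liver transcripts, whose part in these values was not tested. Without it, 15 of the 39 genes in place of 11 had an unadjusted p under 0.05 in Active against Inactive muscle (38.5% in place of 28.2%), while the share of all genes went from 10.9% to 14.3%. In Activity Reduction against Active muscle it was 10 in place of 7 (25.6% in place of 17.9%), beside 14.1% in place of 13.3% of all genes, and over the 3 groups 11 in place of 6, beside 15.9% in place of 12.6%. EdgeR called no member in either of these pairwise comparisons without it.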

How the results depend on the processing

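Over the alternatives, 177 counts of members stayed within 1.5 times the main count and 18 did not. The 177 include counts of called members that were 0 in the main fit and again 0 in the alternative. Single-gene values were followed only where the main fit had an unadjusted p under 0.05. Of these, 445 kept their direction and an unadjusted p under 0.05, 86 kept the direction alone and 1 reversed. Signs of values not followed could turn too, as for Pink1 in Active against Inactive muscle above. Reversed among the values followed was Pink1 in Activity Reduction against Active muscle, at -0.0244 (log2) in the libraries with fewer liver transcripts. There 4 members in place of 7 had an unadjusted p under 0.05 (10.3% in place of 17.9%). The share of all genes was 4.41% in place of 13.3%. DESeq2 called 2 members in this comparison in place of 0, and the share of all genes it called is not given here. For Activity Reduction against Inactive muscle the number at an unadjusted p under 0.05 was 2 (5.13%) in place of 1 in some alternatives. These were DESeq2 size factors, no filter, only the groups compared and the libraries with fewer liver transcripts. The shares of all genes in them were 7.66%, 7.71%, 7.19% and 7.89%, respectively. The number was 1 to 3 when each library was left out, beside 5.31% to 9.07% of all genes. It was 3 without Activity Reduction replicate 3 or 7. It was 2 without Active replicate 1, 2, 4 or 5, Activity Reduction replicate 1 or 2, or Inactive replicate 4 or 7. Over the 3 groups it was 5 to 11 in place of 6 when each was left out, beside 10.3% to 15.9% of all genes. With a replicate block the numbers were 11, 1, 7 and 6, as without it, beside 12.6%, 7.63%, 14.6% and 14.3% of all genes. Of the members, 10, 0, 6 and 6 were shared. Atg9a took the place of Tfe3 in Active against Inactive and Atg12 that of Gabarapl1 in Activity Reduction against Inactive muscle. Map1lc3a took that of Pink1 in Activity Reduction against Active muscle. No member was called with the block. In Active against Inactive muscle 33 of 39 genes were lower with DESeq2 size factors too, 30 with the liver division as covariate and 31 in the libraries with fewer liver transcripts. In Activity Reduction against Active muscle Becn1, Gabarap and Pink1 kept their direction but lost their unadjusted p under 0.05 in 15, 16 and 9 alternatives. Pink1 also lost it where its sign reversed (edgeR unadjusted p = 0.808). Tfe3 in Active against Inactive lost it in 17 and Gabarapl1 in Activity Reduction against Inactive in 7. Ulk1, Ctsl and Becn1 in Active against Inactive lost it in 5, 4 and 4, and 6 other values in 1 or 2. Ctsd, Gabarap and Tfeb in Active against Inactive and Tfeb and Sqstm1 in Activity Reduction against Active lost it in 0. The causes were not tested.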

Other observations

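Pairs of libraries stood out for a few genes across groups. Inactive replicate 7 and Active replicate 2 were the lowest of their groups for Atg3 (18.8 and 18.2 CPM), Map1lc3a (63.4 and 63.7 CPM) and Pink1 (691.1 and 676.1 CPM). Inactive replicate 7 was also the Inactive library with the highest summed Schwann cell markers (167.2 CPM, beside 52.1 to 85.3 in the others), while Active replicate 2 was not high among Active libraries (53.7 CPM). Activity Reduction replicate 2 held both the lowest value of its group for 10 of the 39 genes and the highest for 10, the latter including Tfeb and Sqstm1.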
